A study of Mus musculus with 6 samples.

Results

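The genes described here encode the calcium store of the sarcoplasmic and endoplasmic reticulum and a cytosolic calcium buffer: parvalbumin (Pvalb), triadin (Trdn), the calsequestrins Casq1 and Casq2, the calcium pumps Atp2a1, Atp2a2 and Atp2a3, and the ryanodine receptors Ryr1, Ryr2 and Ryr3. They were taken by symbol and are 10 of the 22322 genes in the deposited expression table. They were chosen by function and with their CD44 KO and wild type expression values in these libraries known, so their values in that comparison are a description and carry no p-value. RNA sequencing was done on epididymal white adipose tissue, the visceral fat pad beside the epididymis, of CD44 KO mice and wild type mice. Both genotypes were fed a high fat diet for 17 weeks, and each has 3 libraries. CD44 is a receptor at the cell surface that binds hyaluronan, and the series asks what it does in white fat. The labels give neither the CD44 allele nor the strain, age or sex, and they do not say whether each library came from a single mouse. P-values therefore measure the spread between these libraries.

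Cells keep a calcium store in the endoplasmic reticulum, called the sarcoplasmic reticulum in muscle. Pumps of the SERCA family, encoded by the Atp2a genes, fill it with the energy of ATP. Calsequestrin holds the calcium inside, ryanodine receptors let it out, and triadin anchors calsequestrin to the receptor. Parvalbumin is a soluble protein that binds calcium in the cytosol and speeds relaxation of fast muscle fibres. In mouse beige fat, cycling of calcium through the pump of Atp2a2 and the channel of Ryr2 is known as a source of heat.

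In CD44 KO fat, Pvalb and Trdn were close to 0, Ryr1 and Ryr2 were several-fold lower than in wild type fat, and the pump genes Atp2a2 and Atp2a3 overlapped between the genotypes. Of the 10 genes, 7 had enough counts in enough libraries to be tested, and Casq1, Atp2a1 and Ryr3 had not. A gene was called when the Benjamini-Hochberg adjusted p of the edgeR quasi-likelihood test was under 0.05. Of the 7, 3 were called (Pvalb, Trdn and Ryr1), all lower in CD44 KO, where 0.882% of the 13829 genes tested were called lower and 2.62% in either direction. The genes that passed the filter include some that passed through 1 genotype alone, so the count supports nothing by itself. With no filter on low counts and in limma on log2(FPKM + 0.1) only Pvalb and Trdn were called, in limma on log2(FPKM + 1) only Pvalb, and DESeq2 called Ryr2 as well as these 3. In 4 of the 7 (Pvalb, Trdn, Ryr1 and Ryr2) the libraries of the genotypes did not overlap, as in 37.8% of all genes tested, 18.1% with lower values and 19.7% with higher values in CD44 KO.

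Upstream sequences are shown for the lower members that have one, Pvalb, Ryr1 and Ryr2, and for Casq2. Each is the 250 bases before an annotated transcript start, 5′ to 3′ on the gene's own strand, from RefSeq on GRCm38.p6. Of the 10 genes, 7 had an entry there, with 8 windows in all. Pvalb has a pair of starts, whose windows are both shown because the deposited values bear on which one was used. Capitals mark a match to the MEF2 motif, the binding motif of the myocyte enhancer factors, searched on both strands.
Pvalb upstream start (chr15:78206401-78206650, minus strand): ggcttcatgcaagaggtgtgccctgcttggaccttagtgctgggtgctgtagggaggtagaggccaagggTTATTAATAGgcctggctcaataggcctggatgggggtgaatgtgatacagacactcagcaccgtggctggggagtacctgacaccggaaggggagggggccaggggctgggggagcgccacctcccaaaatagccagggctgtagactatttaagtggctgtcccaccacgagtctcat
Pvalb downstream start (chr15:78204238-78204487, minus strand): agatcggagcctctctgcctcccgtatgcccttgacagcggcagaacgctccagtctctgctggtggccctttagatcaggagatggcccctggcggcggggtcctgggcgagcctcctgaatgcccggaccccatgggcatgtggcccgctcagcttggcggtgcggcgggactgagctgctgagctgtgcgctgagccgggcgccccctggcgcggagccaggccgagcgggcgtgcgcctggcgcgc
Ryr1 (chr7:29125152-29125401, minus strand): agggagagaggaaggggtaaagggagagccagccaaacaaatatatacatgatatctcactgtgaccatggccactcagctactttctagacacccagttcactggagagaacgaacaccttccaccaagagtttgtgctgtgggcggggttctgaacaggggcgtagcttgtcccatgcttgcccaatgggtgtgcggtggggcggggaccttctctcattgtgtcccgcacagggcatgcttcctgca
Ryr2 (chr13:12106946-12107195, minus strand): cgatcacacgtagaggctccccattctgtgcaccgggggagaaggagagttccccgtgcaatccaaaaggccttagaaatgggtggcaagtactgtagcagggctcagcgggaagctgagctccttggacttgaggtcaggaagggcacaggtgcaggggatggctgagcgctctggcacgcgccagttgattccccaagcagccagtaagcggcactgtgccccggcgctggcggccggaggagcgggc
Casq2 (chr3:102086165-102086414, plus strand): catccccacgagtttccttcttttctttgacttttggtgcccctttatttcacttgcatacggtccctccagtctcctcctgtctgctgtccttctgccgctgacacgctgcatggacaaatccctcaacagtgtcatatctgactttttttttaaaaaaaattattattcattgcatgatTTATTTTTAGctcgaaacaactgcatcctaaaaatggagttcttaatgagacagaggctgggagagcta
The MEF2 motif was present in 2 of the 8 windows and in 2.92% of all 32851 windows of this length. Its matches lay 180 bases before the upstream start of Pvalb and 69 bases before the start of Casq2. The E-box CANNTG, the motif of basic helix-loop-helix factors, was present in 5 of the 8 windows and in 66.2% of all windows. The windows of Ryr1 and of the upstream start of Pvalb held 0 E-boxes, and those of Ryr2 and Casq2 held 2 each. The motifs were searched only in these windows, and a match is no evidence that a factor binds.

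The libraries held 15543317 to 18765009 expected counts each, and a gene with 0 counts could stand at up to 0.157 to 0.194 CPM (3 counts, TMM-normalised read counts scaled to library size). Such limits cover counting error only. Cd44 itself had 28, 50 and 34 expected counts in CD44 KO and 3091, 10580 and 6000 in wild type. CD44 KO replicate 2 held transcripts of some, not all, epididymal markers. The summed CPM of 8 such markers was 13.2, 11036 and 6.67 in CD44 KO replicates 1 to 3. In wild type it was 0.754 to 1.47. Most of the sum in CD44 KO replicate 2 was Crisp1, at 9623 CPM, and Adam7, at 1207 CPM. Spink11 and Lcn5 were also present there, at no less than 77.9 CPM. Lcn8, Lcn9, Cst8 and Cst11 reached no more than 0.42 CPM in that library. Macrophage markers also varied, with summed CPM of 4455, 304 and 959 in CD44 KO against 4375, 9214 and 7455 in wild type over 11 markers. Summed CPM of 8 adipocyte markers was 37669, 33970 and 44180 in CD44 KO and 35314, 17522 and 24122 in wild type.

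Pvalb (ENSMUSG00000005716, chromosome 15, 78191114 to 78206400, minus strand of GRCm38) had 2, 3 and 0 counts in the CD44 KO libraries and 234, 117 and 329 in the wild type libraries. These counts are 0.119, 0.18 and 0 CPM in CD44 KO and 13.8, 6.3 and 17.2 CPM in wild type. The lowest wild type library thus stood far above the highest CD44 KO library, and the CD44 KO counts were at or under the counting floor. The log2 fold change of CD44 KO over wild type was -6.84 (SE 0.79), a level 114-fold higher in wild type. In bulk tissue, fewer cells of a type and less RNA per cell cannot be told apart.

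Trdn (ENSMUSG00000019787, chromosome 10, 33080554 to 33476709, plus strand) had 2, 3 and 1 counts in CD44 KO and 317, 70 and 273 in wild type. Its CPM were 0.119, 0.18 and 0.0647 in CD44 KO and 18.7, 3.77 and 14.2 in wild type. As for Pvalb, wild type replicate 2 was the lowest of its genotype and still far above every CD44 KO library. The log2 fold change of Trdn was -6.56 (SE 0.81), a level 94.6-fold higher in wild type.

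Ryr1, the release channel of skeletal muscle (ENSMUSG00000030592, chromosome 7, 29003344 to 29125179, minus strand), had 20, 14 and 5 counts in CD44 KO and 99, 136 and 94 in wild type. That is 1.19, 0.841 and 0.324 CPM in CD44 KO against 5.84, 7.33 and 4.91 CPM in wild type. The genotypes did not overlap, and the log2 fold change was -2.92 (SE 0.51), a level 7.59-fold higher in wild type. Ryr2, the channel of heart muscle (ENSMUSG00000021313, chromosome 13, 11553102 to 12106945, minus strand), had 19, 10 and 15 counts in CD44 KO and 97, 70 and 60 in wild type. Its CPM were 1.13, 0.601 and 0.971 in CD44 KO and 5.72, 3.77 and 3.13 in wild type, also without overlap. The log2 fold change of Ryr2 was -2.22 (SE 0.43), a level 4.64-fold higher in wild type.

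Ryr3, the channel found in brain and many other tissues (chromosome 2, 112631355 to 113217096, minus strand), had 1, 60.98 and 1 expected counts in CD44 KO and 0, 1 and 0 in wild type. CD44 KO replicate 2, the library with the epididymal transcripts, held nearly all of them. An exon of Ryr3 overlaps Aven on the other strand in the annotation, and the sources used here do not say whether reads were counted by strand. Aven stood at 10.7, 9.97 and 9.39 CPM in CD44 KO and 13.9, 9.91 and 12.7 CPM in wild type, so it was not high in that library.

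Atp2a2, which encodes SERCA2, the pump of most cell types (chromosome 5, 122453513 to 122502225, minus strand), had 2772, 3490 and 2708 counts in CD44 KO and 2575, 4223 and 3350 in wild type. On the CPM scale it averaged 183 ± 23.5 in CD44 KO and 185 ± 38.8 in wild type (SD, n = 3 each). The genotypes overlapped and the log2 fold change was -0.01 (SE 0.21). Atp2a3, which encodes SERCA3, a pump of blood, endothelial and some epithelial cells (chromosome 11, 72961169 to 72993044, plus strand), stood at 83.1, 97.7 and 76.3 CPM in CD44 KO and 85.8, 43.5 and 59.2 CPM in wild type. Wild type replicate 1 lay within the CD44 KO range and the other wild type libraries below it, with a log2 fold change of 0.45 (SE 0.26). Atp2a1, the pump of fast muscle fibres (chromosome 7, 126445858 to 126463108, minus strand), had 7, 1 and 3 counts in CD44 KO and 2, 4 and 0 in wild type, too few to test.

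Casq2, the calsequestrin of heart and slow muscle (chromosome 3, 102086415 to 102146514, plus strand), had 26, 61 and 40 counts in CD44 KO and 58, 10 and 23 in wild type. Wild type replicate 1 was inside the CD44 KO range, and the log2 fold change was 0.60 (SE 0.72). Without that library it was 1.58. Casq1, the calsequestrin of fast muscle (chromosome 1, 172209894 to 172219868, minus strand), had 5, 9 and 8 counts in CD44 KO and 42, 10 and 21 in wild type. Its wild type libraries were all above the CD44 KO libraries in counts, but on the CPM scale wild type replicate 2 (0.539) fell just under CD44 KO replicate 2 (0.541).

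**Figure D1:**
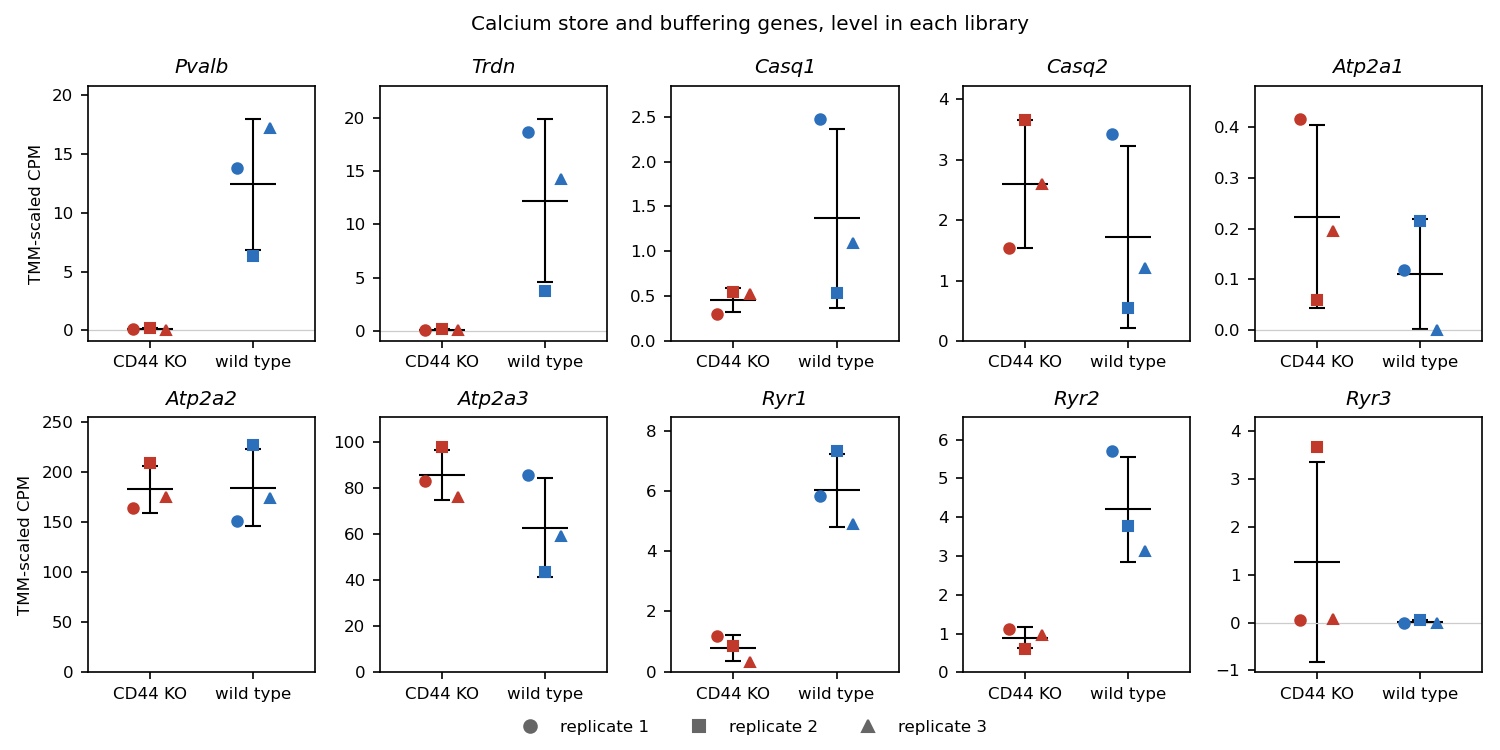
TMM-normalised CPM of the 10 genes, 1 panel per gene with its own linear axis, with 3 CD44 KO libraries on the left and 3 wild type libraries on the right; points are libraries and bars are mean and SD. Pvalb, Trdn, Ryr1 and Ryr2 do not overlap between the genotypes, while Atp2a2 averages 183 CPM in CD44 KO and 185 CPM in wild type.

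Levels of different genes can be set side by side only per length, so the authors' FPKM were used for the order. In CD44 KO fat, Atp2a2 (38.5 ± 2.89 FPKM) and Atp2a3 (18.3 ± 1.71 FPKM) led, and every other member averaged under 1 FPKM (n = 3). In wild type fat, Atp2a2 (40.6 ± 8.56 FPKM) was followed by Atp2a3 (13.9 ± 4.81) and Pvalb (12.9 ± 5.87), which overlapped, and then by Trdn (5.42 ± 3.69). In each wild type library Pvalb was above Trdn, with 14.35, 6.47 and 17.95 FPKM against 8.51, 1.33 and 6.41 FPKM. The 6 remaining members, Casq1, Casq2, Ryr1, Ryr2, Atp2a1 and Ryr3, averaged under 1 FPKM in wild type fat.

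The summed level of the pump family overlapped between the genotypes, at 54.9, 61.8 and 53.8 FPKM in CD44 KO and 52.3, 59.6 and 51.9 FPKM in wild type. Within it Atp2a2 held 66.4%, 67.7% and 69.1% in CD44 KO and 63.5%, 83.9% and 74.6% in wild type, so the shares overlapped. The summed ryanodine receptor level was 0.2, 0.32 and 0.09 FPKM in CD44 KO and 1.08, 0.76 and 0.7 FPKM in wild type. Ryr3 held 71.9% of that sum in CD44 KO replicate 2 and was listed at 0 FPKM in the other 5 libraries. Within the calsequestrins, Casq1 held 20.8%, 16.8% and 21.7% in CD44 KO and 50%, 58% and 56% in wild type. These shares did not overlap, with means of 19.8% ± 2.6 in CD44 KO and 54.7% ± 4.2 in wild type (SD, n = 3 each). Computed from expected counts without the length scaling, the mean Casq1 shares were 15.2% in CD44 KO and 46.6% in wild type. The shares rest on sums of 31, 70 and 48 calsequestrin counts in CD44 KO and 100, 20 and 44 in wild type.

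**Figure D2:**
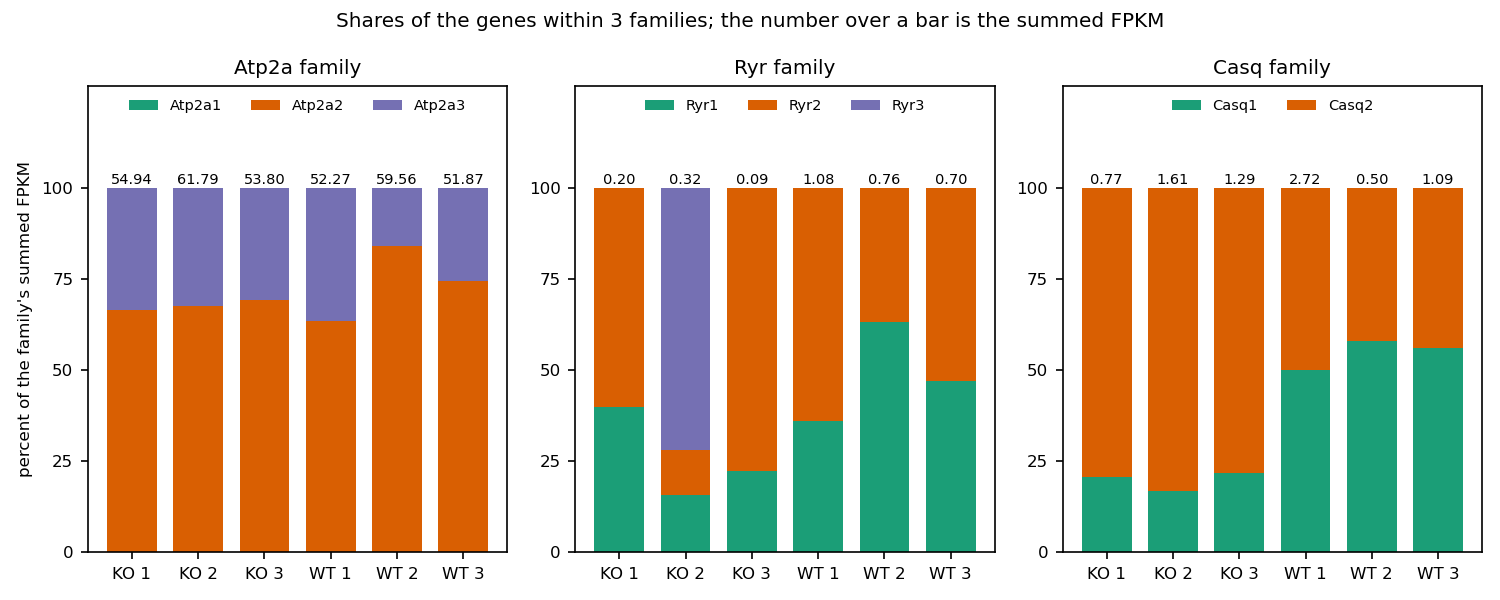
Percent of the summed FPKM of the pump, ryanodine receptor and calsequestrin families held by each gene, 1 stacked bar per library, with CD44 KO libraries left of wild type libraries. Casq1 holds 16.8% to 21.7% in CD44 KO and 50% to 58% in wild type, and Ryr3 appears only in CD44 KO replicate 2.

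The deposited counts and FPKM together give the mean transcript length that the authors' quantification assigned to a gene in a library, since FPKM is the count divided by that length and by the library total. For 276 genes with a single transcript model in GENCODE M21 and at least 10 FPKM in every library, this implied length was within 1% of the model in 272 (98.6%), with a median deviation of 0.00481%. Pvalb has 2 models there: Pvalb-202, of 953 bases, begins at 78206400, and Pvalb-201, of 977 bases, begins downstream at 78204237. The implied length was 976.9, 976.5 and 976.7 bases in the wild type libraries, the length of Pvalb-201. Rounding of the FPKM leaves room for at most 1.97%, 5.07% and 2.18% of Pvalb-202 in wild type replicates 1 to 3. In wild type the assigned transcript thus began at the downstream start, whose window holds no MEF2 match, and not at the upstream start, whose window holds one. In CD44 KO replicate 1, the implied length of 889 to 960 bases holds the length of Pvalb-202 and not that of Pvalb-201. In CD44 KO replicate 2, the range of 964 to 1022 bases holds that of Pvalb-201 and not that of Pvalb-202. These rest on 2 and 3 counts, too few to say which start was used in CD44 KO. The reading holds only if the authors' annotation contained both models, and the sources used here do not name that annotation.

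Trdn had an implied length of 2232, 2842 and 2270 bases in the wild type libraries. GENCODE M21 lists 8 Trdn models, 6 of 356 to 1665 bases and 2 of 4149 and 4514 bases. The wild type values lie between these classes. If the authors' annotation, which is not known, held these models alone, limits on the long share follow. A mixture then has to contain 19.9% to 49.5%, 41.3% to 65.5% and 21.2% to 50.5% of the long models in replicates 1 to 3. Ryr2 had implied lengths of 8422, 13500 and 8642 bases in wild type, where 2 models reach 16813 and 16814 bases and 12 are no longer than 4924. On the same condition, the long models of Ryr2 made up 29.4% to 48.2%, 72.1% to 79.5% and 31.3% to 49.5%. For Trdn these ranges overlap between libraries, so its long share cannot be ranked. In CD44 KO, Ryr2 had implied lengths of 9501, 14052 and 13786 bases on 19, 10 and 15 counts, which overlapped the wild type values. Ryr1 stayed near 1 length, 15207, 15300 and 15180 bases in wild type. The counts of Trdn in CD44 KO, 1 to 3 a library, are too few for such a comparison.

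**Figure D3:**
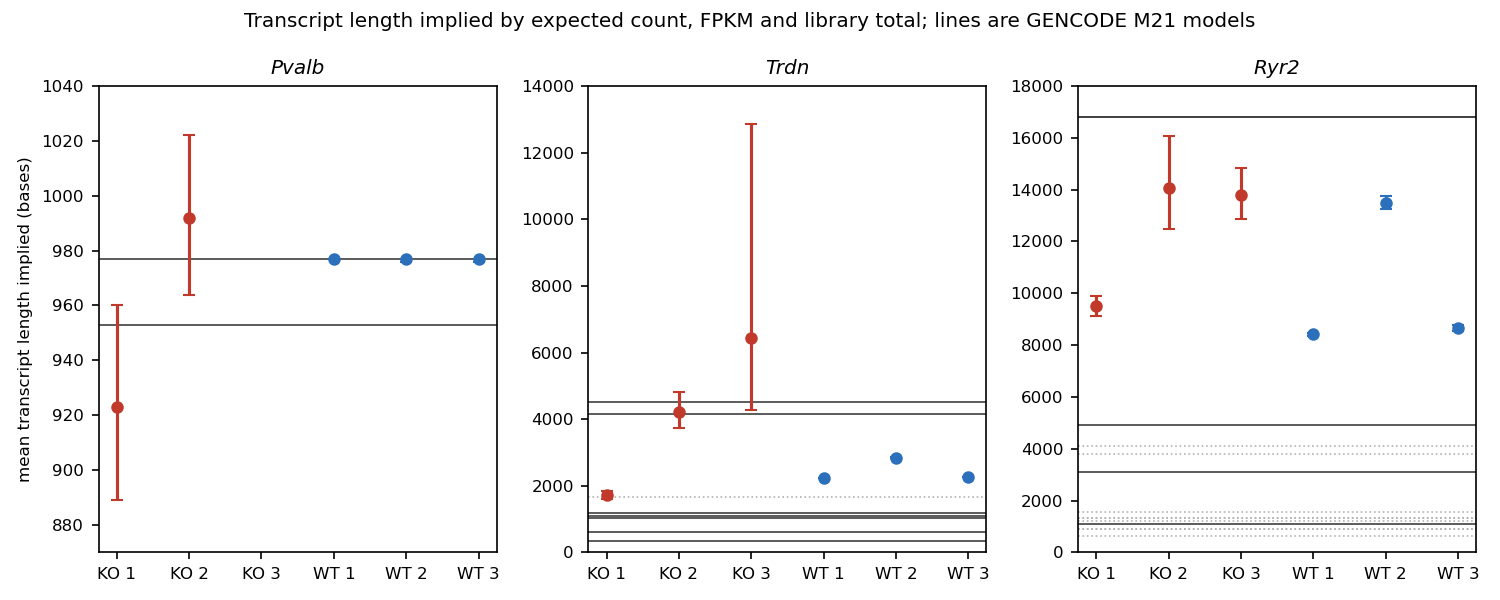
Mean transcript length in bases implied by count and FPKM for Pvalb, Trdn and Ryr2, with CD44 KO libraries left of wild type libraries; bars are the range that rounding of the FPKM allows and horizontal lines are GENCODE M21 model lengths, solid for protein coding models and dotted for others, and CD44 KO replicate 3 has no Pvalb point because it has 0 counts. The wild type points of Pvalb lie on the 977-base model, and those of Trdn and Ryr2 lie between short and long models.

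Markers of muscle were looked at beside these values, because most of the genes are best known there. Of 14 markers of fast skeletal muscle, 10 were under 1 CPM in every library, and Ckm and Myh4 reached no more than 0.24 CPM. All 6 slow muscle markers were under 1 CPM in every library. Myh7, the slow myosin heavy chain, and Myh6 and Nppa, which define cardiac muscle, had 0 counts in all 6 libraries. Of the 6 cardiac markers 4 were under 1 CPM in every library, and their summed CPM was 1.54, 5.23 and 1.62 in CD44 KO and 0.884, 0.162 and 0.313 in wild type. The summed CPM of the fast markers was 54.8, 36.4 and 56.1 in CD44 KO and 68.2, 17.3 and 35.5 in wild type. Most of it was Acta1, at 30.2, 17.3 and 23 CPM in CD44 KO and 42.9, 6.73 and 20.2 CPM in wild type, and Myl1, at 19.1, 15 and 29 CPM in CD44 KO and 22.1, 8.19 and 12.2 CPM in wild type. The sums of the fast markers overlapped between the genotypes, while Pvalb and Trdn did not. The summed CPM of the slow markers was 1.37, 1.08 and 1.1 in CD44 KO and 0.413, 0.862 and 0.522 in wild type. The slow and the cardiac sums were low and were higher in every CD44 KO library than in any wild type library. Each rested mainly on single genes. The largest part of the slow sum in CD44 KO was Tnnt1, at 0.831, 0.661 and 0.971 CPM. That of the cardiac sum was Tnni3 in CD44 KO replicates 1 and 3 (1.07 and 0.842 CPM) and Tnnt2 in CD44 KO replicate 2 (4.99 CPM). Within wild type, Acta1 and Trdn had the same order of libraries, highest in replicate 1 and lowest in replicate 2. That order is not particular to muscle, since the summed adipocyte, endothelial and smooth muscle markers had it too. The endothelial sums, for example, were 1202, 605 and 735 CPM in wild type replicates 1 to 3. Other fast markers were chosen after their values were seen. Myh2, a fast myosin heavy chain, stood at 0.119, 0.3 and 0.0647 CPM in CD44 KO and 0.825, 0.431 and 1.15 CPM in wild type. It was the only fast marker lower in every CD44 KO library than in any wild type library. Actn3, the actinin of fast fibres, stood at 3.03, 1.98 and 2.07 CPM in CD44 KO and 0.413, 0.916 and 0.574 CPM in wild type, so it was higher without overlap. Mylpf, Mybpc2 and Tcap, each under 1 CPM in every library, were also higher in CD44 KO without overlap. The part of muscle, macrophage or adipocyte content in the levels of the members was not tested.

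**Figure D4:**
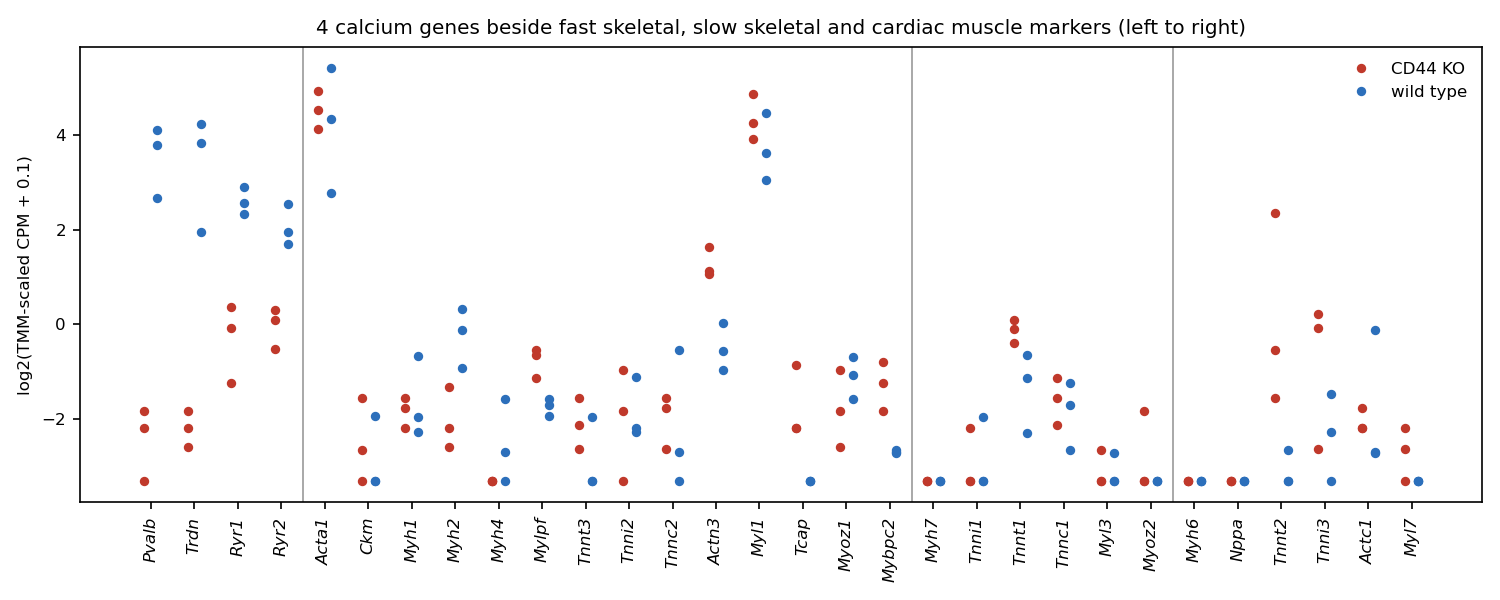
Levels of Pvalb, Trdn, Ryr1 and Ryr2 beside fast skeletal, slow skeletal and cardiac muscle markers, as log2(TMM-normalised CPM + 0.1), with 1 point per library, CD44 KO left of wild type and libraries with 0 counts on the lowest line. Ckm and Myh4 reach no more than 0.24 CPM in any library, while Pvalb stands at 6.3 to 17.2 CPM in wild type.

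For each member with a mean of at least 1 CPM, the 3 genes of most similar profile were found among 12881 candidates by the root mean square difference of log2 CPM, centred over the 6 libraries. Otop1, a proton channel gene, was nearest to both Pvalb (0.395) and Trdn (0.588). It stood at 0.119, 0.24 and 0.0647 CPM in CD44 KO and 17, 11.2 and 13.1 CPM in wild type. Next to Pvalb came Mmp3 (0.577), a matrix protease, and Lipf (0.757), gastric lipase, and next to Trdn came Cck (0.694), a gut and brain peptide hormone, and Hephl1 (0.694). Nearest to Ryr2 was Marco (0.186), a macrophage scavenger receptor, at 0.772, 0.541 and 0.647 CPM in CD44 KO and 3.54, 3.02 and 2.66 CPM in wild type, followed by Ccdc144b and Muc13. Nearest to Ryr1 were Ankrd55 (0.356), Fhl2 (0.374) and the collagen gene Col16a1 (0.388). Atp2a2 lay closest to Rnf20 (0.0265), a ubiquitin ligase that acts on histone H2B, then Rbm25 and Xrn1. Atp2a3 lay closest to Asrgl1 (0.0397), then Acsl1 (0.044), which activates long chain fatty acids, and Smim10l1. Casq2 lay closest to Myh14 (0.223), Sox17 and Pllp. These distances describe 6 libraries and carry no test.

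The wider calcium machinery was taken from 9 lists of 80 genes that hold no member. Of these, 78 were in the table and 59 were tested. By edgeR with Benjamini-Hochberg adjustment over all genes, 3 rose in CD44 KO, against a background of 1.74% called higher, and 0 fell. At an unadjusted edgeR p under 0.05, 4 were higher and 14 lower, where 16.3% of all genes tested were higher and 14.7% lower. DESeq2 called 4 higher and 10 lower, where 9.84% of all genes were called higher and 10.3% lower. The median log2 fold change of the 59 was -0.18, against 0.03 over all genes tested. Each of the 3 calls was lost in some fits with 1 library left out. With CD44 KO replicate 1, 2 or 3 left out in turn, edgeR called 11, 1 and 0 of the listed genes, and with wild type replicate 1, 2 or 3 left out, 2, 0 and 0. The members called in the same fits numbered 4, 1 and 0 with a CD44 KO library left out, and 2, 1 and 0 with a wild type library left out. Over all genes, those called higher numbered 1007, 64 and 5 with CD44 KO replicate 1, 2 or 3 left out. With wild type replicate 1, 2 or 3 left out they numbered 248, 2 and 0. Genes called lower numbered 1363, 36 and 2, and 62, 7 and 0, in the same order. Losses of calls were thus not limited to calcium genes. For the 3 calls, log2 fold changes in these fits ran from 1.71 to 2.11 (Atp2b4), 1.45 to 1.91 (Cacna1c) and 6.3 to 8.01 (Calml3).

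Calcium export and entry at the cell surface held 2 of the 3 calls. Atp2b4, a plasma membrane pump that expels calcium, averaged 326 ± 67.5 CPM in CD44 KO and 90.6 ± 24.9 CPM in wild type (SD, n = 3 each), or 1.85 on the log2 scale (SE 0.27), with an edgeR adjusted p of 0.0337. It was higher in all 3 CD44 KO libraries than in any wild type library, and its adjusted p ran from 2.14e-08 to 0.233 over the alternatives. Leaving out CD44 KO replicate 2 or 3 gave 0.0661 and 0.114, and leaving out wild type replicate 2 or 3 gave 0.139 and 0.233. Cacna1c, the pore of an L-type voltage-gated calcium channel, stood at 8.73, 9.67 and 11.9 CPM in CD44 KO and 4.42, 2.91 and 2.5 CPM in wild type. On the log2 scale the difference was 1.62 (SE 0.30), with an edgeR adjusted p of 0.0499, or 0.0801, 0.141, 0.17 and 0.25 when the same 4 libraries were left out in turn. With all libraries it was 0.0553 without TMM scaling and 0.063 with no filter on low counts, so the call also depended on these settings. Among other surface genes, Slc8a1, a sodium-calcium exchanger, averaged 13.8 ± 5.77 CPM in CD44 KO and 35 ± 9.21 CPM in wild type, which did not pass (edgeR adjusted p 0.0784). DESeq2 called Slc8a1 lower (adjusted p 0.00743), as did edgeR when CD44 KO replicate 1 was left out (0.0245). Atp2b3 stood at 102 CPM in CD44 KO replicate 2, the library with epididymal transcripts, and at 0.0647 to 0.323 CPM in the other 5 libraries.

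Among the cytosolic buffers and sensors, Calml3, a calmodulin-like protein of epithelia, rose in CD44 KO. It stood at 11.4, 32.8 and 4.08 CPM in CD44 KO and 0.059, 0.162 and 0.0522 CPM in wild type, or 7.35 on the log2 scale (SE 1.05), with an edgeR adjusted p of 0.0337. That p was 0.0631 when CD44 KO replicate 3 was left out, and 0.0669, 0.144 and 0.233 when wild type replicates 1, 2 and 3 were left out in turn. The highest value is from CD44 KO replicate 2, the library with epididymal transcripts, and the CD44 KO libraries had the same order in Calml3 as in the epididymal sums (13.2, 11036 and 6.67 CPM). The summed CPM of 4 mesothelial markers was 37.5, 34.8 and 23.2 in CD44 KO and 6.25, 7.76 and 0.522 in wild type, and the part of either marker list in the levels of Calml3, Atp2b4 and Cacna1c was not tested. Of the 9 buffers and sensors tested, 1 was called.

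In the list of junction and luminal partners 8 of 14 were tested, and edgeR called 0 of them over all libraries, with 1 lower at an unadjusted p under 0.05. That gene was Tmem38b, a potassium channel of the store membrane, at 24.8 ± 5.16 CPM in CD44 KO and 44 ± 5.98 CPM in wild type (edgeR adjusted p 0.0739). DESeq2 called it lower (adjusted p 0.00951), as did edgeR when CD44 KO replicate 1 was left out (0.0355), and its adjusted p ran from 0.00951 to 0.277 over the alternatives. Asph, whose locus also encodes junctin, a relative of triadin, averaged 226 ± 44.2 CPM in CD44 KO and 178 ± 8.07 CPM in wild type (edgeR adjusted p 0.247). Jph2, which ties the store to the surface membrane, averaged 3.43 ± 0.203 CPM in CD44 KO and 1.84 ± 1.26 CPM in wild type (edgeR adjusted p 0.266). Of 6 listed peptides that regulate SERCA, 4 were found by symbol, and these were scarce. Arln and Erln were not found, so their levels are not known. Sln had 0 counts in all 6 libraries. Pln averaged 1.82 ± 0.383 CPM in CD44 KO and 0.823 ± 0.399 CPM in wild type (edgeR adjusted p 0.195). Cacna1s, the voltage sensor that opens Ryr1 in skeletal muscle, averaged 0.189 ± 0.194 CPM in CD44 KO and 0.161 ± 0.0885 CPM in wild type.

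The other release channels of the store, the IP3 receptors, were more abundant than the ryanodine receptors, and edgeR called 0 of the 3, with 0 at an unadjusted p under 0.05 and 0 called by DESeq2. On the FPKM scale Itpr1 averaged 9.37 in CD44 KO and 11.3 in wild type, Itpr2 4.95 in CD44 KO and 5.96 in wild type, and Itpr3 2.45 in CD44 KO and 2.63 in wild type. Their log2 fold changes in edgeR were 0.08 (SE 0.32), -0.01 (SE 0.27) and -0.04 (SE 0.34), and their edgeR adjusted p ran from 0.879 to 0.983. In limma on log2(FPKM + 0.1) the changes were -0.27, -0.29 and -0.09, with adjusted p of 0.573, 0.411 and 0.871. The sign of Itpr1 thus depended on the scale. By edgeR, the luminal binders Calr, Calu and Rcn3 differed by -0.53, -0.87 and -1.25 on the log2 scale. Their edgeR adjusted p of 0.219, 0.0544 and 0.0742 did not pass. DESeq2 called Calu (adjusted p 1.43e-05) and Rcn3 (0.0048) lower, and did not call Calr (0.154). Limma on log2(FPKM + 0.1) and log2(FPKM + 1) also called Calu (0.0447 and 0.0436). Without CD44 KO replicate 1, edgeR called Calu (0.033) and Rcn3 (0.0319). Over the alternatives their adjusted p reached 0.253 (Calu) and 0.272 (Rcn3). For store-operated entry, the sensors Stim1 and Stim2 differed by 0.58 and -0.54 on that scale (edgeR adjusted p 0.0975 for Stim1 and 0.0945 for Stim2), and the channel Orai1 by -0.60 (edgeR adjusted p 0.149). Among the mitochondrial uptake genes, the inhibitory subunit gene Mcub averaged 10.5 ± 9.72 CPM in CD44 KO and 37.5 ± 9.59 CPM in wild type (edgeR adjusted p 0.14), and the pore gene Mcu 14.4 ± 1.41 CPM in CD44 KO and 19.4 ± 3.75 CPM in wild type (0.184). DESeq2 called Mcub lower (adjusted p 0.036) and did not call Mcu (0.1975). Without CD44 KO replicate 1, edgeR called Mcub lower as well (0.0252).

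**Figure D5:**
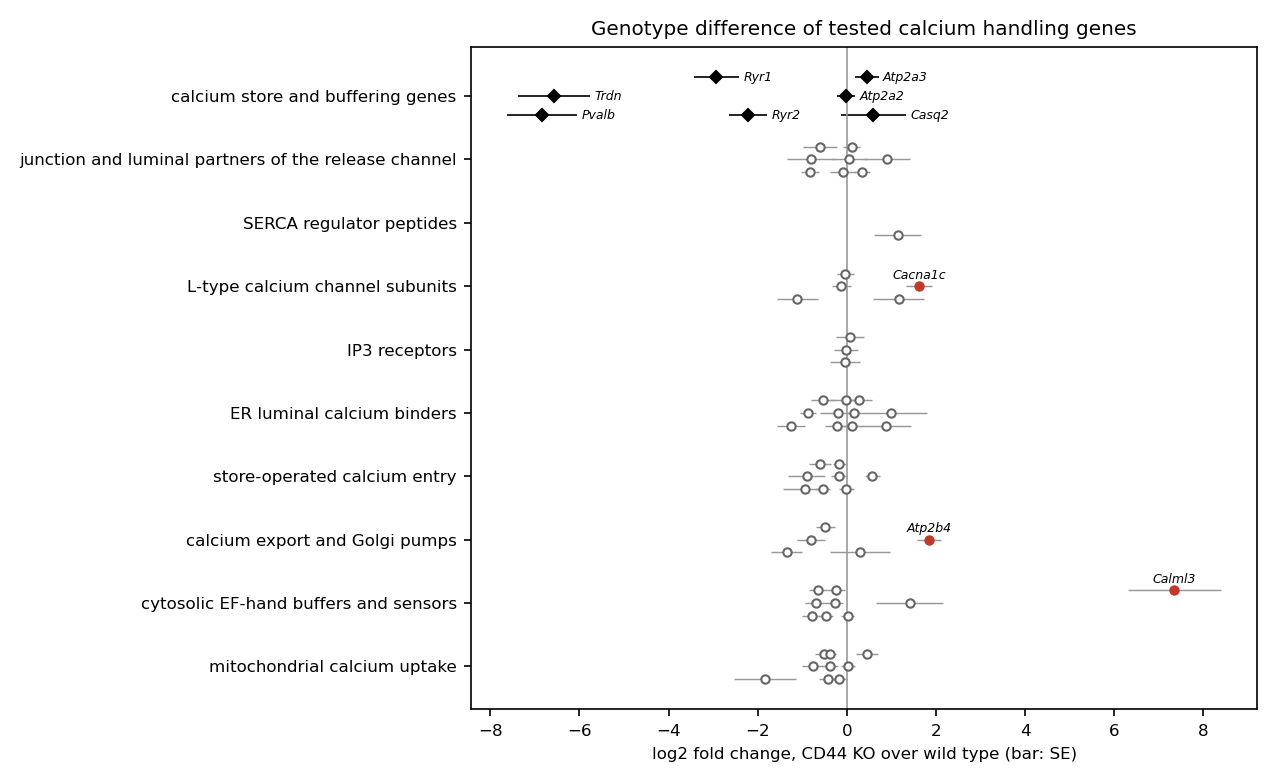
Log2 fold change of CD44 KO over wild type (x axis, bars are SE) for the 7 tested members (black diamonds) and the 59 other tested calcium handling genes by list (circles, filled where called). Pvalb and Trdn lie at -6.84 and -6.56, and the filled circles are Cacna1c, Atp2b4 and Calml3.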

How the data were processed

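Per the labels' protocols, mRNA was enriched with oligo(dT) beads and sequenced as NEBNext Ultra libraries on an Illumina NovaSeq. The authors deposited expected counts, which are estimated per gene and not scaled, and FPKM, which the authors scaled for length and library total and rounded to hundredths. RSEM, DESeq2, HISAT2 and StringTie 1.3.1 appear in the submitters' processing notes without a stated role. Genome build: not given in the sources used here; likewise the annotation. Positions come from GENCODE M21 (GRCm38), where 99.8% of the table's identifiers were found.

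The expected counts were rounded and compared with edgeR 4.0.16 in R 4.3.3 (filterByExpr, TMM, glmQLFit with robust estimation, glmQLFTest) over the 6 libraries, and p-values were adjusted by Benjamini-Hochberg across the 13829 tested genes. The fit was first tested on simulated data. Alternatives used other scaling factors, no filter, DESeq2 1.42.0, limma 3.58.1 on log2(FPKM + 0.1) and log2(FPKM + 1), a replicate block, and each library left out.

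The members and lists were chosen with earlier results of these data known. The text names all members, Cd44, from each calcium list every called gene and up to 3 others of lowest p with a mean of at least 1 CPM, genes fixed by name (such as Itpr1, Sln and Calr), the nearest profiles, and the highest and lowest marker of a list, though not every gene so taken is described. Atp2b3, Cacna1s, Aven, Acta1, Ckm, Myh2, Actn3, Mylpf, Mybpc2, Tcap, Tnni3, Elovl3, Dio2, Ppargc1a, Cidea and Cox7a1 were chosen after their values were seen. The same holds for the epididymal markers named singly.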

Additional observations from a re-analysis of the deposited data

How the results depend on the processing

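Over the alternatives, Pvalb, Trdn, Ryr1, Ryr2, Casq2 and Atp2a3 kept the sign of their log2 fold change, and Atp2a2, near 0, changed sign in 4 of 13. On log2(FPKM + 1) the difference shrank, to -3.56 for Pvalb, -2.40 for Trdn and -0.41 for Ryr1, since a pseudocount understates low genes. Of all genes, 240 were called higher, 145 with no filter and 1349 by DESeq2, and 0 to 1007 with 1 library left out. Genes called lower numbered 122, 1416 by DESeq2, 206 and 203 by limma, and 0 to 1363 with 1 library left out. Among the other calcium handling genes, 3 were called higher (0 to 3 with 1 library left out) and 0 lower, against 10 lower by DESeq2, 1 by each limma setting, and 0 to 8 with 1 library left out. Without CD44 KO replicate 3 or wild type replicate 3 no member was called. The cause of these shifts was not tested. With the replicate number as a block, 0 genes were called higher or lower and 0 calcium handling genes higher, with 2805 genes at an unadjusted p under 0.05 in that edgeR fit. The deviations of same-numbered libraries correlated at -0.321, -0.218 and -0.0176. These correlations cannot decide whether the numbers pair the samples, because libraries of the same genotype differed widely in epididymal and macrophage transcripts. The main fit used no pairing. Depth limits Casq1 and Atp2a1, which had too few counts to test, and transcript lengths in CD44 KO. Ryr3 was not tested because nearly all its counts lay in CD44 KO replicate 2.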

Other observations

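Markers of heat-producing fat were listed because calcium cycling has been linked to it. Ucp1, the uncoupling protein of brown and beige fat, had 1, 0 and 0 counts in CD44 KO and 9, 10 and 12 counts in wild type, under 1 CPM in every library. Ppargc1a, a coactivator of mitochondrial genes, stood at 3.92, 7.03 and 6.41 CPM in CD44 KO and 0.884, 1.51 and 1.25 CPM in wild type. Elovl3, a fatty acid elongase, stood at 0.297, 0.12 and 0 CPM in CD44 KO and 1.77, 2.53 and 4.38 CPM in wild type. Dio2, which activates thyroid hormone, stood at 0.772, 0.0601 and 0 CPM in CD44 KO and 2.83, 2.69 and 0.939 CPM in wild type. The summed CPM of the 7 markers was 10.4, 12.1 and 13.3 in CD44 KO and 20.3, 10.5 and 13.7 in wild type, so the sums overlapped. Ppargc1a was higher and Ucp1, Elovl3 and Dio2 were lower in every CD44 KO library than in any wild type library. Cidea, Cox7a1 and Cox8b overlapped between the genotypes. Of all genes tested, 37.8% did not overlap. By edgeR, Ppargc1a was called (adjusted p 0.0438), while Elovl3 (0.0594) and Dio2 (0.158) were not. Ppargc1a, Elovl3 and Dio2 were chosen after their values were seen. Without wild type replicate 2 or 3, edgeR called 2 and 0 of all genes higher. Ucp1 had too few counts to test.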
